A study of Mus musculus with 8 samples.

Results

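Enteroendocrine cells were taken from single-cell RNA libraries of mouse small and large intestine as barcodes with at least 500 detected genes, at most 20% of UMIs (unique molecular identifiers, each standing for 1 captured transcript) from mitochondrial (mt-) genes, and at least 10 UMIs of the granin genes Chga and Chgb together. The rule found 71 barcodes among the 8944 that passed the first pair of filters, out of 17488 deposited for the tissues. Of these, 30 came from the small and 41 from the large intestine. In the small intestine they made up 1.09% of 2756 filtered barcodes (exact Clopper-Pearson 95% interval 0.736 to 1.55%), and in the large intestine 0.663% of 6188 (0.476 to 0.898%). As a share of Epcam-positive (epithelial) barcodes, the values were 1.60% of 1873 and 0.774% of 5295. All intervals given here cover counting error only.

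The study dealt with intestinal stem cells and their lymphatic neighbours, and comprised 2 tissue single-cell libraries, 2 libraries of small intestinal organoids (cultured alone or in coculture) and 4 Visium spatial sections. Tissue came from C57BL/6 mice and from Lgr5-eGFP-ires-CreERT2 mice on that background, in which green fluorescent protein and a tamoxifen-inducible Cre are made from the stem cell gene Lgr5. Both tissues were untreated as far as the labels say, and the labels used here give neither age nor the number of animals. From each digested tissue, 50000 viable cells were sorted and combined with 50000 LGR5+ stem cells and 20000 to 25000 CD31+ PDPN+ LYVE1+ lymphatic endothelial cells. Shares therefore describe the sorted mixture, not the tissue. With 1 library for each gut region, effects of the library cannot be told apart from those of the tissue. Cells are not replicates, and no test between the tissues was possible.

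Enteroendocrine cells are rare epithelial cells that sense the gut content and release hormones into the blood or onto nerve endings. They arise from crypt stem cells through a brief pulse of the transcription factor Neurog3, followed by Neurod1, and store their products with granins in dense-core granules. Textbook classes are enterochromaffin cells, which make serotonin with the enzyme Tph1, and cells named for peptides such as glucagon-like peptide (Gcg), peptide YY (Pyy), cholecystokinin (Cck), gastric inhibitory polypeptide (Gip), ghrelin (Ghrl) and somatostatin (Sst).

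The 71 barcodes held 465139 UMIs in the small and 592575 in the large intestine, with medians of 13900 and 9929 per barcode (ranges 953 to 60635 and 2260 to 62805). Other Epcam-positive barcodes, 1843 and 5254 of them, were deeper at medians of 24559 and 24707 UMIs. Summed levels are given as CPM, the UMIs of a gene per 1000000 UMIs of the same barcodes, and 3 UMIs in the members equal 6.45 CPM in the small and 5.06 CPM in the large intestine. The whole tissue libraries held 78482770 and 142501907 UMIs. The tissue libraries shared 25 barcode sequences, and no enteroendocrine barcode was among them. A doublet score (Scrublet) placed 0 of 30 and 1 of 41 members among the removed top scores.

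A group of 5 large intestinal members was alike within counting noise. Over genes expected at 5 or more UMIs in both barcodes of a pair, chi-square divided by its degrees of freedom was 0.738 to 1.42 in their 10 pairs, where 1 is counting noise alone. The next pair was at 1.52, the median of all other large intestinal pairs at 19.7, and the lowest small intestinal pair at 2.41. These 5 held 2772 to 3954 UMIs and 1217 to 1502 genes, and each carried Tph1 (4 to 11 UMIs) and Sct (35 to 45 UMIs) beside 123 to 195 UMIs of the colonocyte gene Car1. Whether they are separate cells was not tested, so the Tph1 share and the values of the Sct carriers are also given without them.

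Chga and Chgb chose the members, so their values are a description. The members' granin sums ran from 10 to 1371 UMIs with a median of 126.5 in the small intestine, and from 11 to 2102 with a median of 158 in the large intestine. The next values outside the rule were 9, 9 and 8 UMIs in both libraries, and 85.5% and 92.3% of filtered barcodes had 0. The small intestine had 19 barcodes with 5 to 9 granin UMIs, of which 16 held none of Neurod1, 3 Tph1 UMIs or 10 UMIs of a hormone gene. The large intestine had 3 such barcodes, and all 3 held Neurod1 and a hormone gene.

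The label was checked against Neurod1, which the rule did not use. Neurod1 was present in 27 of 30 small and 32 of 41 large intestinal members, at 933 and 483 CPM, against 0.995 and 0.382 CPM in the other epithelium. After thinning to 2000 UMIs per barcode, which left out 1 shallow small intestinal member, it was still present in 69.0% of small and 51.2% of large intestinal members, against 0.170% and 0.105% of other barcodes. None of Neurod1, 3 Tph1 UMIs or 10 UMIs of a peptide hormone gene was found in 2 small and 1 large intestinal member. Epcam was present in 28 of 30 and 40 of 41. Tuft cell markers, which belong to another rare chemosensory type, were nearly absent: 6 of 8 listed genes in the small and 5 of 8 in the large intestine were at 0, Dclk1, Trpm5 and Pou2f3 among them in both. Neuronal transcripts that enteroendocrine cells can share were seen (13 listed genes summed to 187 and 311 CPM), but Prph, Vip, Nos1 and Chat were at 0 in both libraries. The 7 T cell genes summed to 0 and 1.69 CPM, the 6 macrophage genes to 247 and 10.1 CPM, with a single small intestinal barcode at 4923 CPM.

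Genes of the secretory granule set the members apart from other epithelium in both tissues. All 10 measured genes of a 12-gene list of granule proteins and prohormone-processing enzymes were at least 1 log2 unit higher in members, with a median log2 ratio of 9.59 in the small and 9.52 in the large intestine. A gene counted as measured with at least 20 UMIs over members and other epithelium, except that a gene under 3 UMIs in members counted only where the other epithelium stood above the level of 3 member UMIs. This left out 3693 of 14319 genes in the small and 4765 of 16119 in the large intestine, all under 3 UMIs in members. Over all 10626 measured genes of the small intestine, 28.7% were at least 1 log2 unit higher in members and 6.31% lower, with a median of 0.44; in the large intestine, 21.2% of 11354 were higher and 7.25% lower, with a median of 0.21. With the genes left out put back into the denominator, the higher shares were 21.3% and 14.9% and the lower ones 4.68% and 5.11%. Without the highest barcode of each gene, 1842 genes were higher and 1459 lower in the small intestine (3051 and 670 with it), and 1461 and 1563 in the large (2405 and 823). In both libraries at once, 13.6% of 9981 were higher and 2.35% lower. Low genes enter these shares mainly where members are high, and since the rule chose cells by granin genes, the ratios are read as a description.

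By the rule for naming genes, the 15 highest ratios that held in both libraries included, beside the rule gene Chgb, Tph1, Rab3c, Fev, Resp18, Scg5, Pyy, Neurod1, Scg3, Pcsk1n, Kcnb2, Ptprn, Scgn, Cpe and Celf3. Scg5 encodes the chaperone 7B2 of prohormone convertase 2, and stood at 159 and 204 CPM in members against 0.122 and 0.187 CPM elsewhere. Scg3, a granin that binds granule cholesterol, was at 217 and 152 CPM. Cpe, the carboxypeptidase that trims prohormones, was found in 26 of 30 and 33 of 41 members at 974 and 550 CPM. Pcsk1, the prohormone convertase, was found in 27 and 23 members, with log2 ratios of 6.66 and 4.52. Of the exocytosis machinery, 19 of 19 measured genes in the small and 17 of 18 in the large intestine were at least 1 log2 unit higher, against 28.7% and 21.2% of all genes; 1 and 2 listed genes were not measured. Snap25, a membrane fusion protein best known from synapses, was at 168 and 203 CPM with log2 ratios of 9.84 and 8.62. Rab3c, a small GTPase of secretory vesicles, had 66 UMIs in small intestinal members and 2 in the other epithelium, and a log2 ratio of 12.41 in the large intestine, but only 10 and 18 members held it.

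For a choice of granin and hormone genes that hold a short motif, promoter sequences are shown here to let their start sites be read. The palindrome TGACGTCA is the full cyclic AMP response element, a binding sequence of CREB-type factors, and CAGATG is an E-box of the kind bound by Neurod1 with its partners. Read on the other strand, that E-box is spelled CATCTG. The sequences are the 250 bases before the annotated start, 5′ to 3′ on the gene's own strand, from RefSeq (build GRCm38.p6), with the motif in capitals. Chgb (chr2:132781392-132781641, plus strand) holds the element 72 bases before the start, Scg2 (chr1:79440027-79440276, minus strand) 68 bases and Sst (chr16:23890845-23891094, minus strand) 48 bases before it. Cck (chr9:121495695-121495944, minus strand) holds the E-box 30 bases and Gcg (chr2:62483654-62483903, minus strand) 139 and 83 bases before the start.
Chgb: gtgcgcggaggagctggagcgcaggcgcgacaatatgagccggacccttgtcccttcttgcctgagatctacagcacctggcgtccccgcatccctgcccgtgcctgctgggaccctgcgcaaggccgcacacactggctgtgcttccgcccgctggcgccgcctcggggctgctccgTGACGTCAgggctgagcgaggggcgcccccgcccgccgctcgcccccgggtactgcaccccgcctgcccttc
Scg2: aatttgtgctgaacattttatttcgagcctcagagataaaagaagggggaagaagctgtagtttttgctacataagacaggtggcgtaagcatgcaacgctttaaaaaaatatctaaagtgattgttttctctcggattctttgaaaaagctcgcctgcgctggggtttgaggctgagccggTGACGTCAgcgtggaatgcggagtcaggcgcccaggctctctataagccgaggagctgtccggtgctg
Sst: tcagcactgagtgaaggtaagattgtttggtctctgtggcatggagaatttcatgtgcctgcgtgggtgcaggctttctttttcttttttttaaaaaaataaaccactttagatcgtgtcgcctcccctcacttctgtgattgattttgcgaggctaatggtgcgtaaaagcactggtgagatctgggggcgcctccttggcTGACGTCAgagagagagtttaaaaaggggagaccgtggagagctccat
Cck: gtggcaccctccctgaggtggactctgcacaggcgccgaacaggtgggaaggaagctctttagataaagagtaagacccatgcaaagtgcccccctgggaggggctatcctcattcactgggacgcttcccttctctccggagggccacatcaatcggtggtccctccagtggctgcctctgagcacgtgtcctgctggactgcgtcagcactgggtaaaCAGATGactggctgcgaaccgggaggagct
Gcg: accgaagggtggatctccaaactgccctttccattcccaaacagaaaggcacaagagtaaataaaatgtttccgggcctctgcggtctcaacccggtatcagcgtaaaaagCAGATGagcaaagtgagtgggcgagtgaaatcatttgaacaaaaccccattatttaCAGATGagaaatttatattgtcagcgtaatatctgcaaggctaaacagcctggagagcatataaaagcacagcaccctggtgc
On either strand, TGACGTCA was present in 1.55% of 32851 promoter windows of this length. Some genes have several windows. It was present in 1 of 19 windows of the hormone genes (Sst) and 2 of 12 windows of the granule genes (Pcsk1 and Scg2). The E-box was present in 14.4% of all windows, in 7 of 19 windows of the hormone genes (36.8%; 1 each for Cck, Gcg, Iapp, Insl5, Sct, Tac1 and Ucn3) and in 0 of 12 windows of the granule genes. These are matches of letters in a window and not binding sites.

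The granins were not spread evenly over the members. Among large intestinal members, the 7 barcodes with at least 10 UMIs of Gcg, Pyy or Insl5 had 4 to 15 Chgb UMIs with a median of 8, while the 29 with at least 3 Tph1 UMIs had 10 to 1719 with a median of 197. These 7 were the deeper barcodes, at a median of 19102 total UMIs against 7783. Median Chga was 24 against 76 UMIs. In the small intestine, 8 Gcg or Pyy carriers had median Chga and Chgb of 15 and 106 UMIs, and 9 Tph1 carriers had 125 and 338. Gip carriers of the small intestine were nearly without Chga: 7 barcodes held 0 to 18 UMIs with a median of 2, beside a Chgb median of 99. Membership needed 10 granin UMIs, and in the large intestine 4 filtered barcodes outside the rule held at least 10 UMIs of Gcg, Pyy or Insl5, with at most 9 granin UMIs.

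**Figure D1:**
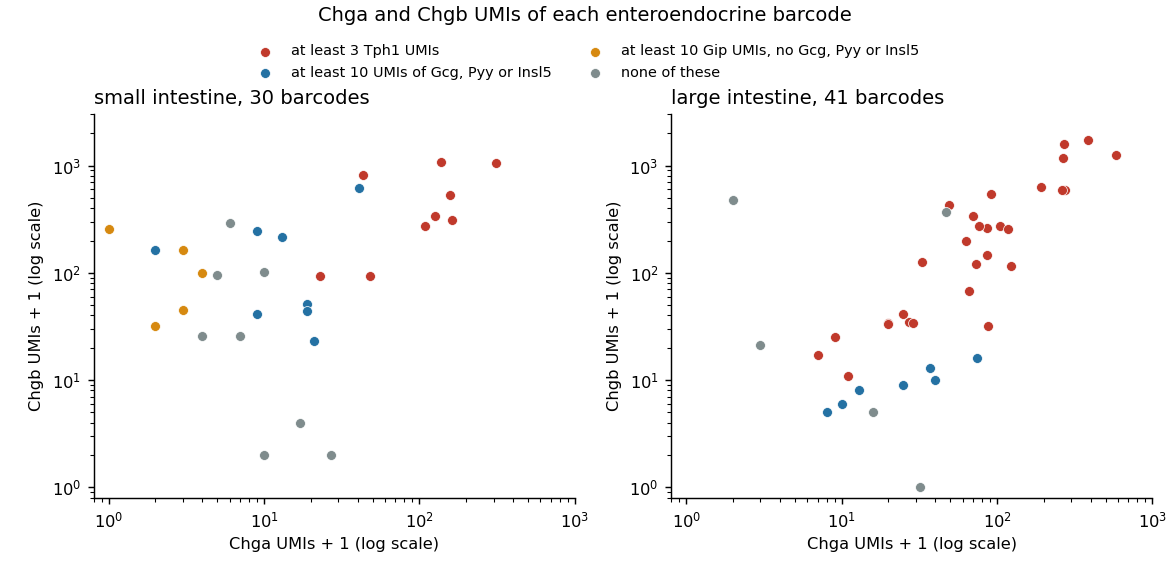
Chga (x axis) and Chgb (y axis) UMIs plus 1 on log scales, 1 point per enteroendocrine barcode, small intestine left and large intestine right, coloured by the genes carried. Large intestinal Gcg, Pyy or Insl5 carriers lie low, at a Chgb median of 8 UMIs, and Tph1 carriers run up to 1719.

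Hormone transcripts were concentrated in few barcodes and at high counts. A barcode was said to carry a peptide hormone gene with at least 10 UMIs of it, and Tph1, an enzyme with lower counts, with at least 3. In other Epcam-positive barcodes, 0 of 1843 and 0 of 5254 carried Tph1, and at most 4 barcodes carried any listed peptide gene other than Sct and Tac1. Sct was carried by 5.81% of the other small and 4.24% of the other large intestinal epithelium, and Tac1 by 1.07% of the large. All 10 measured genes of the 14 listed peptide hormones were at least 1 log2 unit higher in members in each library, with median log2 ratios of 11.65 and 8.72, where 28.7% and 21.2% of all measured genes were that much higher. The large intestinal Nts ratio turned to −2.41 at a granin minimum of 20 UMIs, which removes both of its carriers.

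Members fell into sets by what they carried, and Tph1 was never carried together with Gcg, Pyy or Insl5. In the small intestine, 9 members carried Tph1, 8 carried Gcg or Pyy, 5 carried Gip without those, and 8 carried none of them. In the large intestine, 29 carried Tph1, 7 carried Gcg, Pyy or Insl5, 0 carried Gip and 5 carried none of them. A set of 3 or more peptide hormone genes was carried by 12 of 30 small (40.0%) and 7 of 41 large intestinal members (17.1%), and none of those barcodes carried Tph1. At a granin minimum of 5 UMIs these shares were 24.5% and 20.5%, and at 20 they were 42.9% and 10.8%. The most in 1 barcode was 5 and 6 genes.

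**Figure D2:**
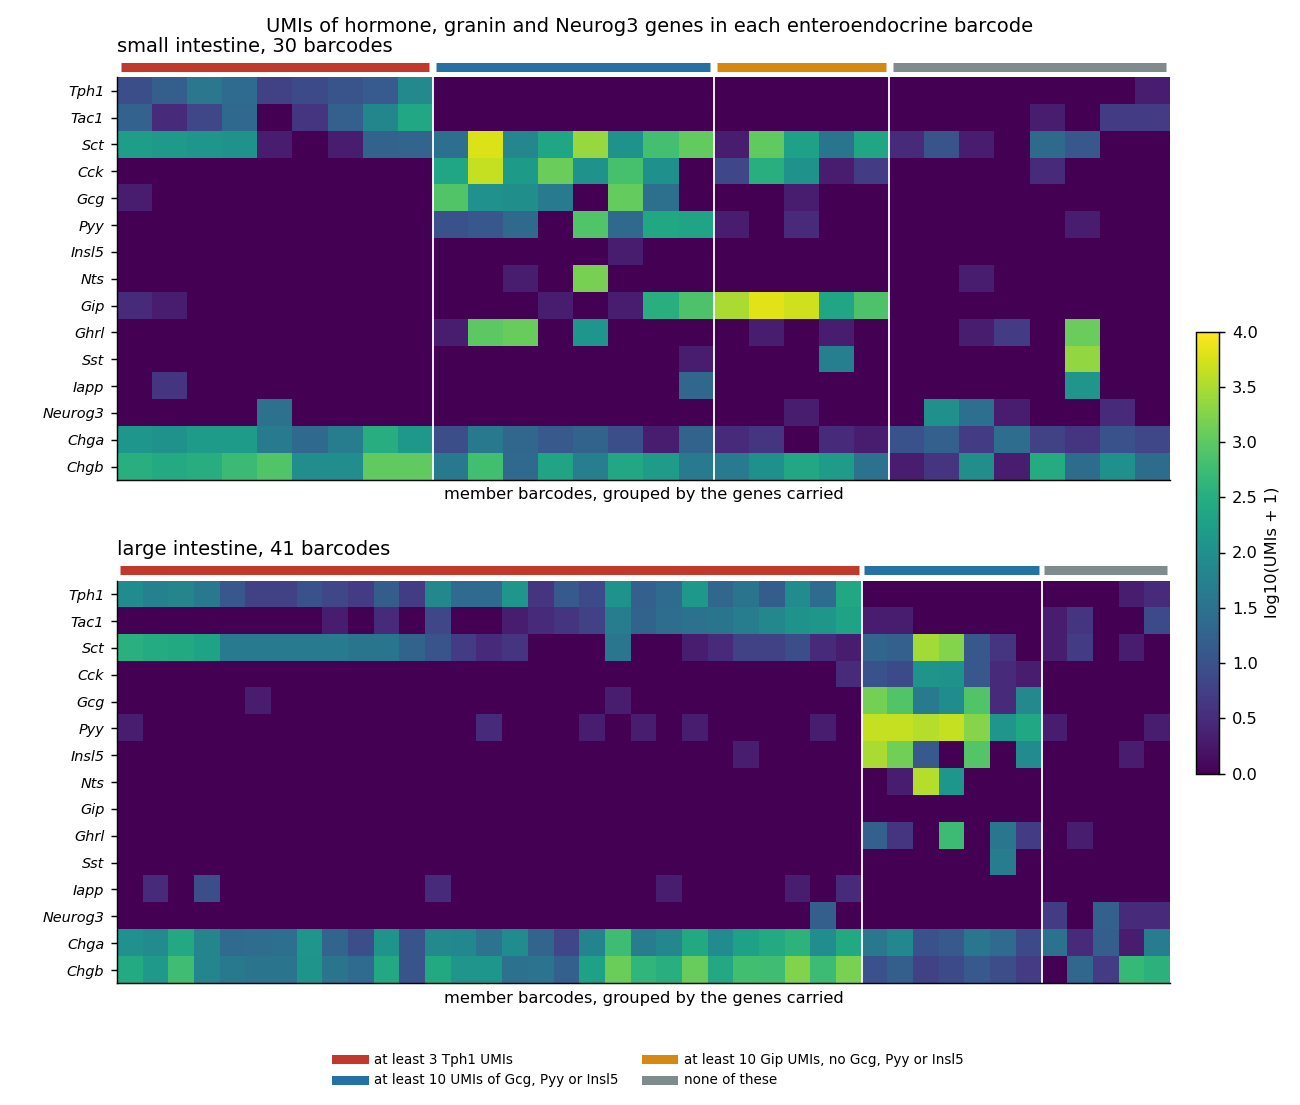
UMIs of hormone, Neurog3 and granin genes (rows) in each of the 30 small and 41 large intestinal enteroendocrine barcodes (columns), as log10 of UMIs plus 1, grouped by the genes carried (coloured bars). Of the peptide genes, only Sct was carried (at least 10 UMIs) both among the 29 large intestinal Tph1 barcodes and among the 7 Gcg, Pyy or Insl5 barcodes.

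Peptide genes of the small intestine overlapped. All 6 Gcg carriers also carried Cck and Sct, and 4 of them carried Pyy. All 9 Cck carriers carried Sct, and 3 of the 9 carried Gip. The 7 Gip carriers held 235, 337, 762, 762, 3118, 5194 and 6662 Gip UMIs, and in 1 of them Gip made up 33.9% of all UMIs. Cck was found in 13 members with a median of 223 UMIs in carriers and 4525 in the highest. Ghrl was carried by 4 members at 125 to 1202 UMIs. Sst rested on a single barcode with 2217 UMIs, 97.6% of the gene's total, which also held 1202 Ghrl and 119 Iapp UMIs. Nts (neurotensin) likewise came from 1 barcode with 1526 UMIs, which carried Pyy, Cck, Sct and Ghrl.

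In the 7 large intestinal barcodes that carried Gcg, Pyy or Insl5, Pyy was the leading hormone gene. Its counts were 120, 242, 1848, 3614, 4374, 4414 and 4477 UMIs. Gcg counts in the same barcodes ran from 2 to 1478 with a median of 86, and Insl5 (an insulin-family peptide of colonic endocrine cells) from 0 to 3053 with a median of 83. All 6 Gcg carriers carried Pyy, and 5 of the 6 carried Insl5. Nts was at 3579 UMIs in 1 of these barcodes and 126 in another. All 7 Pyy barcodes of the large intestine carried at least 3 peptide genes.

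Neurog3, the factor that opens the endocrine lineage, marked few members. At least 3 Neurog3 UMIs were found in 3 small intestinal members (28, 30 and 102 UMIs) and 3 large intestinal members (4, 15 and 16). All 6 held Neurod1. In the large intestine, 13 other Epcam-positive barcodes held at least 3 Neurog3 UMIs with a median of 0 granin UMIs, and 3 of these held Neurod1 and 5 the proliferation gene Mki67.

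Tph1 was carried by 30% of small (exact interval 14.7 to 49.4%) and 70.7% of large intestinal members (54.5 to 83.9%). With the 5 alike barcodes counted as 1, the large intestinal share was 67.6% of 37 (50.2 to 82.0%), and without them 66.7% of 36 (49.03 to 81.4%), and that range overlaps the small intestinal one. Thinned to 2000 UMIs, the shares were 20.7% (7.99 to 39.7%) and 43.9% (28.5 to 60.3%), and the intervals overlapped. At a minimum of 10 Tph1 UMIs they were 20.0% (7.71 to 38.6%) and 51.2% (35.1 to 67.1%), which overlapped too. The intervals count barcodes of 1 library each and are no test between the tissues. With barcodes of 5 to 9 granin UMIs included, they were 18.4% of 49 and 65.9% of 44. Summed over members, Tph1 was at 424 CPM in the small and 2162 CPM in the large intestine, a log2 ratio of −2.35 (exact interval −2.58 to −2.13), and −3.65 at a granin minimum of 5 UMIs.

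Between the tissues, 9.79% of 6925 genes measured in members were at least 1 log2 unit higher in the small and 9.88% in the large intestine, with a median of 0.00. Of 11 measured peptide hormone genes, 6 were at least 1 log2 unit higher in the small and 2 in the large intestine. Gip had 17075 UMIs in 11 small intestinal members (36709.5 CPM) and 0 UMIs in the large intestine, at least 12.82 log2 units apart against a floor of 3 UMIs. Cck was at 16079 and 435 CPM, a log2 ratio of 5.21 (5.03 to 5.39), which was 3.55 at a granin minimum of 5 UMIs and 8.29 at 20. Ghrl was at 7488 and 1036 CPM, with 90.2% of the large intestinal UMIs in 1 barcode; leaving out the highest barcode of each library moved the log2 ratio from 2.85 to 5.60. Sct was at 27807 and 10346 CPM, a log2 ratio of 1.43. Sst was at 4882 and 79.3 CPM, a log2 ratio of 5.94. All 47 large intestinal Sst UMIs were in 1 barcode, and without the highest barcode of each library the small intestine was at least 4.52 log2 units higher against a floor of 3 UMIs. Iapp was at 305 and 27.0 CPM; its log2 ratio of 3.50 became 1.87 without the highest barcodes. A granin minimum of 5 UMIs adds 19 small and 3 large intestinal barcodes. At that minimum the ratios of Sct, Ghrl, Sst and Iapp were 0.14, 1.55, 1.45 and 1.55. At a minimum of 20 UMIs those of Sct and Ghrl were 3.43 and 6.33.

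In the other direction, Insl5 had 1 UMI in the small intestine and 5397 UMIs (9108 CPM) in 7 large intestinal members, a log2 ratio of −12.05 (−17.35 to −9.57). Pyy was at 2930.3 and 32229 CPM, a log2 ratio of −3.46 (−3.54 to −3.38), and −4.92 at a granin minimum of 5 UMIs. Gcg was at 4859 and 5625 CPM, a log2 ratio of −0.21 that was −2.34 at a granin minimum of 5 UMIs. Tac1, the precursor of substance P, was at 823 and 1271 CPM with a log2 ratio of −0.63, and −1.58 without the highest barcodes. Nts, at 3285 and 6254 CPM, rested on 1 barcode in each library.

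The Visium sections, which cover whole gut wall and were not used by the rule, gave a second reading of the same genes. Each tissue had 2 sections, which the study calls technical duplicates, and 2 against 2 cannot give an exact permutation p below 0.333. Of 12 hormone and Tph1 genes measured in both, 11 were higher in the same tissue as in members, counted by sign alone. Among these, the Visium log2 ratios of Tac1, Gcg and Ghrl were only −0.02, −0.09 and 0.32. No share of all genes with the same sign is given beside this count. Insl5 was at 147 and 139 CPM in the large and 1.07 and 0.631 CPM in the small intestinal sections. Pyy was at 309 and 323 CPM against 67.9 and 65.2, and Tph1 at 5.96 and 6.84 CPM against 0.739 and 0.864. None of these sets of section values overlapped, while those of Gcg, Ghrl and Tac1 did. Nts went the other way: 0.509 and 0.662 CPM in the large and 108 and 96.3 CPM in the small intestinal sections, a log2 ratio of 7.45 where members gave −0.93. The direction in members rested on the 2 large intestinal carriers that a granin minimum of 20 UMIs removes; at that minimum the large intestine kept 1 Nts UMI. Sections also hold enteric neurons (the neuronal gene Elavl4 was at 3.08 to 13.0 CPM), and their part in Sst and Tac1 was not tested. Fewer cells of a type and less RNA per cell cannot be told apart in spots.

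**Figure D3:**
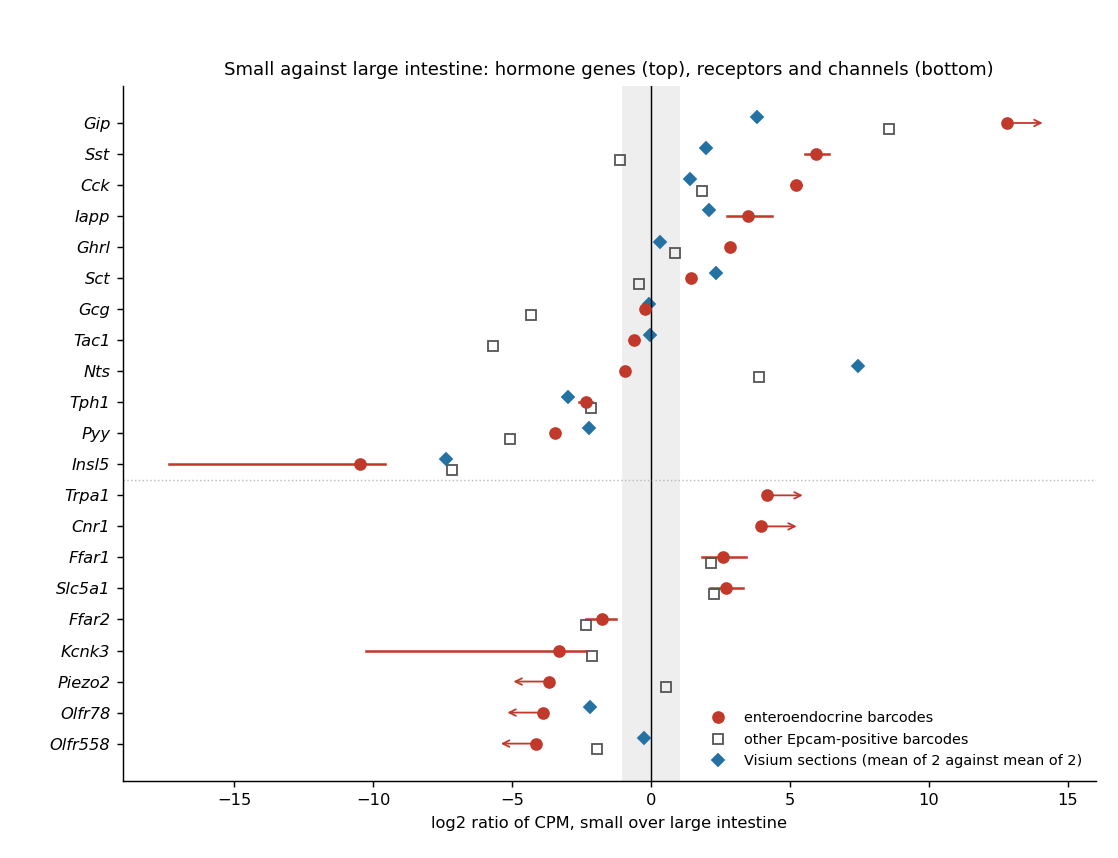
Log2 ratio of CPM, small over large intestine, for hormone genes (above the dotted line) and for receptors and channels (below it). Filled circles are enteroendocrine barcodes with exact 95% counting intervals or an arrow where 1 tissue had 0 UMIs, open squares the other Epcam-positive barcodes, diamonds the Visium sections, and the grey band 1 log2 unit either way; counts of 1 or 2 UMIs are plotted as 3, which puts Insl5 at −10.46 in members, and Gip lies at 12.82.

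A part of the listed genes differed between Tph1 carriers and other members in the same direction in both tissues. In each library the 9 and 29 carriers were set against the 20 and 10 members with 0 Tph1 UMIs. Of 63 listed genes measured in both libraries, 17 were at least 1 log2 unit higher in carriers in both, 12 were lower in both and 1 was opposite, and the rest did not reach that size in both. Over all 3330 genes measured in both, 2.82% were higher and 1.38% lower in both. In the small intestine alone 10.9% of 3851 measured genes were higher and 10.2% lower, and in the large intestine 12.2% of 4440 and 4.19%. Some lists of other cell types differed as well, by the same limit of 1 log2 unit. Of measured colonocyte genes, 4 of 4 were higher in large intestinal carriers, and in small intestinal ones 1 of 2 was higher and 1 lower. Of enterocyte genes, 5 of 7 were lower and 0 higher in small intestinal carriers. In large intestinal ones 1 of 5 was higher and 1 lower. Since Tph1 defined the sets, all these values are descriptions of them.

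The serotonin pathway beyond Tph1 itself was in part higher in carriers. Of the list, Tph1 included, 4 of 8 measured genes were at least 1 log2 unit higher and 1 lower in small intestinal carriers. In the large intestine 6 of 7 were higher and 0 lower. Over all genes, 10.9% and 12.2% were higher. Slc18a1, the vesicular monoamine transporter VMAT1, had 115 of its 122 large intestinal UMIs in carriers, with log2 ratios of 2.33 and 4.44. Slc18a2, the related transporter VMAT2, was found in the small intestine with 20 UMIs, 18 of them in carriers, and had 2 UMIs in the large intestine. Gch1, the first enzyme of the tetrahydrobiopterin cofactor of Tph1, had log2 ratios of 1.05 and 2.26. Ddc, which makes serotonin from 5-hydroxytryptophan, was found in 29 of 30 and 34 of 41 members and had ratios of 0.79 and 1.64.

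Among peptides, Tac1 was the only listed gene higher in carriers in both libraries, with 374 of 383 small and 740 of 753 large intestinal UMIs in them and log2 ratios of 8.4 and 6.54. Lmx1a, a homeobox factor of serotonergic cells, had 27 of 28 small intestinal UMIs and 54 of 55 large intestinal UMIs in carriers, where members without Tph1 held 1 and 0. Rab3c had 60 UMIs in small intestinal carriers against 2 in members without Tph1, and a log2 ratio of 5.22 in the large intestine. Snap25 had log2 ratios of 2.90 and 1.69. Syt7, Syt13 and Stxbp5l, which regulate granule fusion, were also at least 1 log2 unit higher in both.

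A second group of genes was low or at 0 in Tph1 carriers. Scg2 (secretogranin II) had 0 UMIs in carriers of either tissue, against 550 and 135 UMIs in members without Tph1. The homeobox factor Isl1 had 0 against 177 and 0 against 127 UMIs, at least 3.71 and 5.81 log2 units lower. Etv1 was lower by log2 ratios of −2.43 and −5.29, and Pax6 by −1.10 and −1.70. Ffar1, a receptor for long-chain fatty acids, had 0 against 85 and 0 against 17 UMIs. Abcc8, the sulfonylurea receptor subunit of ATP-sensitive potassium channels, had 0 against 56 and 1 against 17.

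**Figure D4:**
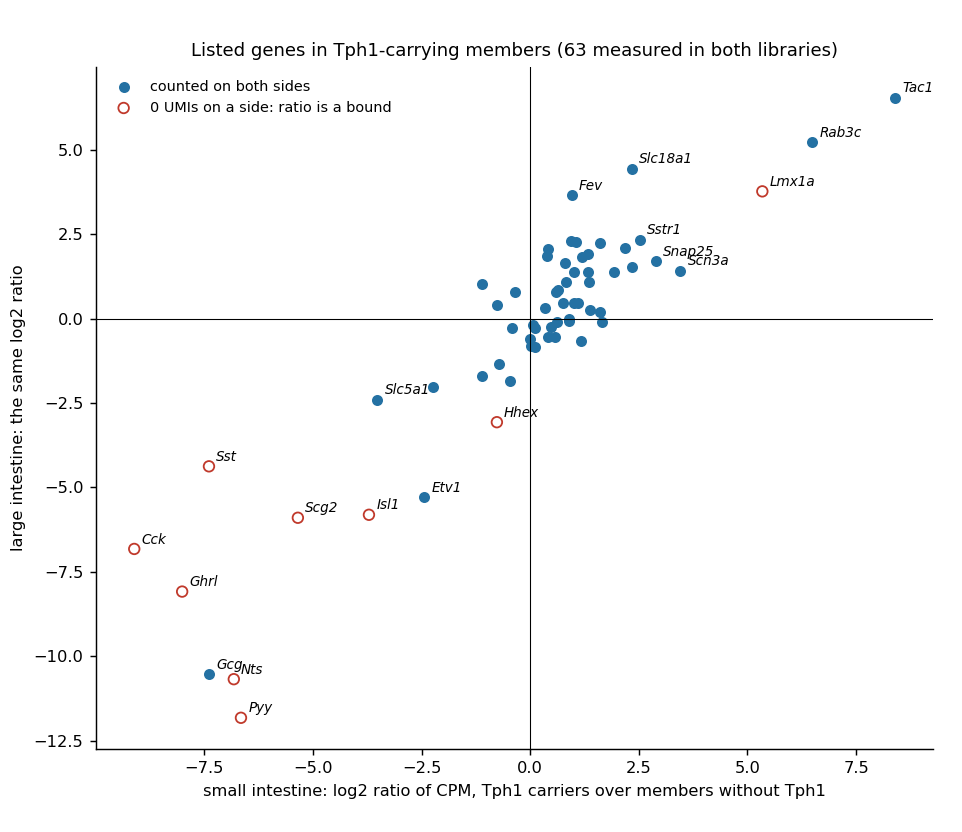
Log2 ratio of CPM of Tph1 carriers over members without Tph1, small intestine on the x axis and large intestine on the y axis, 1 point for each of 63 listed genes; open points are bounds with 0 UMIs on a side, and counts of 1 or 2 UMIs are plotted as 3. Tac1 and Rab3c lie at the upper right, and Gcg, Pyy, Cck, Isl1 and Scg2 at the lower left.

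Large intestinal Tph1 carriers split by Sct and Tac1. Of 29, 13 carried Sct (10 to 351 UMIs, median 43) and not Tac1, with 0 Tac1 UMIs in 10 of them. Another 9 carried Tac1 (18 to 209 UMIs, median 47) and not Sct, 1 carried both and 6 neither. In the small intestine, 4 of 9 carried both. The Sct set was shallower, at a median of 3954 UMIs against 13349 in the Tac1 set, so low Tac1 counts there are at a lower depth; the summed Tac1 level was 95.5 CPM against 4155 CPM. The choice of these sets followed from the values seen. The 13 include the 5 alike barcodes, without which 8 remain, and the member with a high doublet score.

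Beyond Sct and Tac1, the sets differed in colonocyte and goblet genes, a difference that rested on a part of the Sct set. All 3 measured colonocyte genes, 5 of 6 goblet genes and 1 of 3 enterocyte genes were at least 1 log2 unit higher in the Sct set, and 0 of these were higher in the Tac1 set. Of 2151 genes measured over both sets, 8.46% were at least 1 log2 unit higher in the Sct set and 14.1% in the Tac1 set, with a median of −0.17. Car1, the carbonic anhydrase of colonocytes, had 1172 UMIs in 10 of 13 barcodes of the Sct set and 14 UMIs in the Tac1 set, a log2 ratio of 7.17 (6.41 to 8.04). The surface epithelial water channel Aqp8 was at 4.65, and among goblet genes Zg16 was at 4.36, Spink4 at 3.24 and Tff3 at 0.78 (−0.25 to 1.81). Without the 5 alike barcodes Car1 was at 5.89, Zg16 at 4.27 and Spink4 at 3.05. The Car1, Zg16 and Spink4 values came mainly from 7 of the 13 barcodes, the 5 alike ones, the one with a high doublet score and the deepest, with 30501 UMIs. The 7 held 123 to 232 Car1, 5 to 215 Zg16 and 34 to 848 Spink4 UMIs, and the other 6 held 0 to 1, 1 to 4 and 1 to 16. With only those 6 in the Sct set, Zg16 was at 0.42, and Spink4 and Muc2 turned to −0.72 and −1.77. In the Tac1 set a single barcode held 184 of 234 Spink4 UMIs and a single barcode 241 of 266 Muc2 UMIs.

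Higher in the Tac1 set were the odorant receptor gene Olfr558 at −3.39, Rab3c at −2.88, Pcsk1 at −2.84 and the short-chain fatty acid receptor Ffar2 at −2.22. With only those 6 barcodes in the Sct set, Rab3c was at −1.91 and Ffar2 at −1.42, while Pcsk1 had 2 UMIs against 49 and Olfr558 had 1 against 54. Chga was at −0.04, Chgb at −1.16 and Tph1 at 0.15 (−0.04 to 0.34), and with the 6 barcodes 0.69, −0.44 and 0.71. Pcsk1n, an inhibitor of prohormone convertase 1, was higher in the Sct set, at 2.90 and 3.60.

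**Figure D5:**
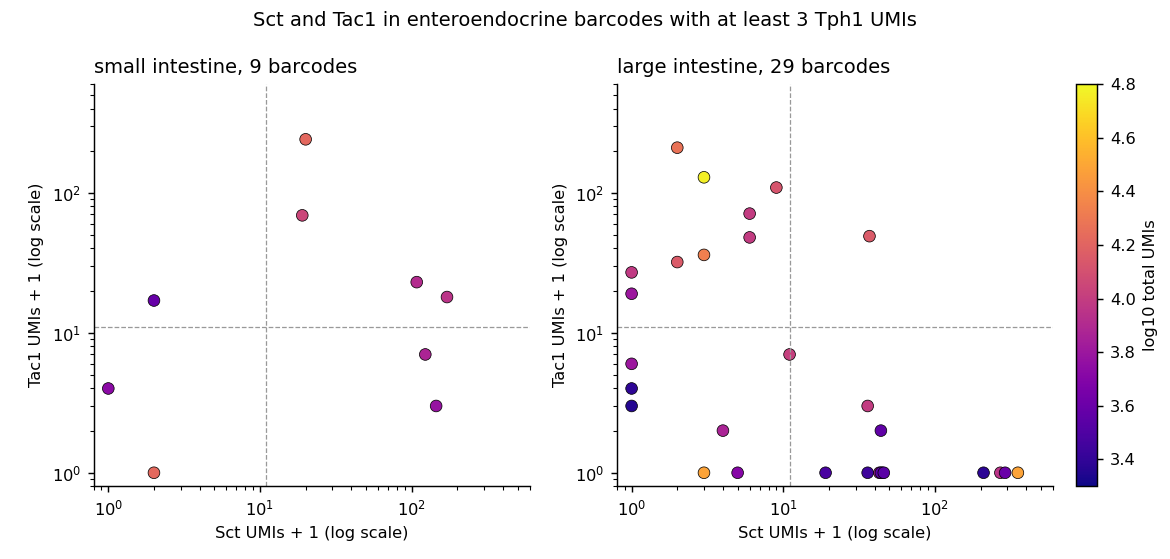
Sct (x axis) and Tac1 (y axis) UMIs plus 1 on log scales in the 9 small and 29 large intestinal members with at least 3 Tph1 UMIs, coloured by log10 of total UMIs, with dashed lines at 10 UMIs. In the large intestine 13 points lie past the Sct line alone, 9 past the Tac1 line alone and 1 past both.

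The listed transcription factors that were measured were higher in members than in other epithelium almost throughout. In the small intestine 25 of 25 and in the large 21 of 22 were at least 1 log2 unit higher (medians 8.51 and 7.62). Over all genes the shares were 28.7% and 21.2%, and 3 and 6 of the 28 listed factors were not measured. Insm1, a zinc-finger factor of endocrine precursors, was found in 25 and 32 members at 355 and 422 CPM. Fev, a serotonergic ETS factor, was at 200 and 137 CPM with log2 ratios of 11.27 and 10.93. Between tissues, 10 of 24 measured factors were at least 1 log2 unit higher in the small intestine, 0 in the large and 14 between, where 9.79% and 9.88% of all genes were. The median was 0.85 where all genes had 0.00. Tph1 carriers made up 30% and 70.7% of the members, and the part of this mix in the ratios was not tested. Pax6 was at 275 and 55.7 CPM (log2 ratio 2.30), Rfx6 at 217 and 81.0 CPM (1.42) and the orphan nuclear receptor Nr4a2 at 138 and 18.6 CPM (2.89). Onecut2 had 72 UMIs in 20 small intestinal members and 0 in the large intestine, a difference also seen in the other epithelium (log2 ratio 9.83). Onecut3 had 26 UMIs in 2 small intestinal members and 0 in the large. Neurog3 was at 353 and 65.8 CPM, with 62.2% of the small intestinal UMIs in 1 barcode. In Visium it went the other way at low counts, with 6 and 14 UMIs in the large and 0 in both small intestinal sections.

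Several receptors and channels were detected in members of 1 tissue only. The irritant channel Trpa1 had 43 UMIs in 7 small intestinal members, 42 of them in Tph1 carriers, and 0 in the large intestine, at least 4.19 log2 units apart. The large intestine held 57 UMIs of Olfr78 and 67 of Olfr558, odorant receptor genes expressed outside the nose, in 11 members each, with 54 and 67 of them in Tph1 carriers and 0 in the small intestine. These are at least 3.90 and 4.13 log2 units. The mechanosensitive channel Piezo2 had 49 UMIs in 8 large intestinal members, 47 in Tph1 carriers, and 0 in the small intestine. Tph1 carriers held 84273 UMIs in the small and 324341 in the large intestine. The part of this mix in the tissue ratios was not tested. In Visium, Olfr78 was at 3.54 and 2.94 CPM in the large and 0.780 and 0.631 CPM in the small intestinal sections, and Olfr558 overlapped.

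Nutrient sensing genes divided likewise. Ffar1 was at 183 and 30.4 CPM (log2 ratio 2.59) and the sodium-glucose transporter Slc5a1 at 338 and 52.3 CPM (2.69), or 1.63 without the highest barcodes. Other epithelium had ratios of 2.15 and 2.26 for this pair. Ffar2 was at 77.4 and 265 CPM (−1.78), beside −2.36 in other epithelium. The cannabinoid receptor Cnr1 had 37 UMIs in 6 small intestinal members and 0 in the large, and 0 of them in Tph1 carriers. Agtr1a, an angiotensin II receptor, had 20 UMIs in 5 large intestinal members, all outside the Tph1 carriers, and 0 in the small intestine. The potassium channel Kcnk3 had 1 and 38 UMIs, a log2 ratio of −4.90 (−10.24 to −2.33). Over the list of 11 measured nutrient and microbial receptors, 5 were at least 1 log2 unit higher in the small and 4 in the large intestine, where 9.79% and 9.88% of all genes were; 7 listed receptors were not measured. In members, 14 of 14 and 16 of 16 measured genes of the ion channel list were at least 1 log2 unit above other epithelium. Over all genes the shares were 28.7% and 21.2%, and 13 and 11 listed genes were not measured. The list includes Celf3, which encodes an RNA-binding protein and not a channel. Scn3a, a voltage-gated sodium channel, was at 172 and 304 CPM, and the calcium channel Cacna1a, found in 28 and 32 members, at 568 and 250 CPM, a log2 ratio of 1.18 that was −0.12 at a granin minimum of 5 UMIs.

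All 20 genes named by the size of the tissue ratio had the same sign in the rest of the epithelium, though sizes could differ. For the small intestine these were Gip, Defa24, Rbp2, Myl7, Fabp1, Defa30, Lgals2, Tm4sf5, Prap1 and AY761184, and for the large intestine Car1, Sval1, Retnlb, Sycn, Wfdc2, Mptx1, Muc2, Car2, Hoxb13 and Cldn14. Of the Paneth defensins, Defa24 and Defa30 were found in all 30 small intestinal members, Defa22 in 96.7% and Defa17 in 53.3%. Defa24 was at 2558 CPM in members and 65740 CPM in the other epithelium. The 8 Paneth genes together were at 4347 CPM in members and 111888 CPM elsewhere, and what part of these UMIs came from RNA outside the cell was not tested. A single barcode held 91.7% of the Fabp1 and 73.2% of the Rbp2 UMIs. The 5 alike barcodes held 777 of the 1222 large intestinal Car1 UMIs. Hoxb13, a posterior homeobox gene, was found in 21 of 41 large intestinal members at 240 CPM and in 0 small intestinal members.

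A second rule named genes whose tissue ratio in members departed most from that of the other epithelium. Rbp4, the retinol carrier, was at 361 and 35.4 CPM in members, a log2 ratio of 3.35, where other epithelium had −3.98. Fabp5, a fatty acid carrier, was at 2150 and 321 CPM (2.75 against −1.90). Gfra3, a receptor for the neurotrophic factor artemin, was found in 19 and 23 members (0.81 against −5.11). Gpx3, Myl7, Cacna2d1, Bex2, Neurog3, Gip and Cck completed the small intestinal names. On the large intestinal side were Chga, Ccl6, Nupr1, Muc2, Zg16, Spink4, Ramp1, Nrp2, Guca2a and Reg3b. Of these, Chga is a rule gene: the rule sets its counts in members and limits them in the other epithelium, so its place is a description. At a granin minimum of 5 UMIs the tissue ratio of Reg3b turned from −1.90 to 4.19 and that of Bex2 from 1.23 to −0.17. Muc2, the main goblet mucin, was at 2619 CPM in large and 68.8 CPM in small intestinal members, and 49.6% of the large intestinal UMIs came from 1 barcode; without the highest barcodes the log2 ratio was −4.40 in place of −5.25. The 7 goblet genes together were at 8472 CPM in large and 1584 CPM in small intestinal members, against 19205 and 22866 CPM in the other epithelium, and their part in these ratios was not tested. Nrp2, a semaphorin co-receptor, was found in 24 of 41 large and 4 of 30 small intestinal members (−4.28 against −1.18).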

How the data were processed

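Single-cell UMI count matrices of the small and large intestine, deposited by the authors per sample, were read as raw counts. Per the file headers they came from Cell Ranger 6.0.1, and the Visium count matrices from Space Ranger 1.2.1. The submitters' processing notes name mm10; the annotation release is not given in the sources used here. Gene symbols were those of the files, and 32158 of 32287 identifiers matched the RefSeq gene table.

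The members, gene lists and naming rules were chosen with earlier results of these data known. Counts were summed over barcodes and divided by their total UMIs (CPM). Ratios carry exact 95% Poisson intervals, and a count under 3 was set to 3. The tissue ratios of Insl5 and Kcnk3 given in the text are exceptions and use the counts themselves. With 1 library per tissue no test was run, and calling means a log2 ratio of at least 1 with at least 20 UMIs over both groups, leaving out a gene under 3 UMIs in 1 group unless the other group stood above the level of those 3 UMIs. Named genes were all genes of the lists, the 15 highest member ratios (lower of the libraries, at least 50 UMIs in each and a UMI in 20% of members), and the 10 highest and lowest tissue ratios (at least 100 UMIs and 20% of members), alone and relative to other epithelium. Doublets were kept; removing the highest Scrublet scores (0.8% per 1000 barcodes) was an alternative. Filters, granin and hormone minimums, scaling and single barcodes were varied. Intervals and ratios were tested on counts simulated from 1 profile shared by all member barcodes. Differences between barcodes were left out there, so the test does not cover them. Tools were Python 3.11.15, numpy 2.4.6, scipy 1.17.1, pandas 2.3.3, scanpy 1.11.5 and matplotlib 3.10.9.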

Additional observations from a re-analysis of the deposited data

Results flagged for a closer look

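3 listed or named genes were at least 1 log2 unit higher in enteroendocrine than in other Epcam-positive barcodes of 1 tissue and at least 1 log2 unit lower in the other; the difference between the tissues was not tested. Maob, a monoamine oxidase, had a log2 ratio of −1.32 in the small and 2.27 in the large intestine, from 5 and 18 UMIs in members. With a granin minimum of 5 UMIs the small intestinal ratio was 1.30 and the signs were no longer opposite. Ffar4, a fatty acid receptor, had 2.35 and −2.18, from 16 and 6 UMIs, and at the granin minimum of 5 the former came out just under 1. Gpx3, a secreted glutathione peroxidase, had 4.90 and −1.20, from 101 and 3 UMIs.

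Barcodes with at least 10 Chga and Chgb UMIs also appeared among those that the report leaves out by its gene and mitochondrial filters. There were 13 in the small and 9 in the large intestine, with median mitochondrial shares of 38.0% and 36.5% and median depths of 1620 and 2079 UMIs. At least 3 Tph1 UMIs were found in 3 of them in each library, and at least 10 UMIs of a peptide hormone gene in 0 and 2.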

How the results depend on the processing

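Of the single-gene values recomputed under the alternatives, 1882 of 2130 tissue ratios, 1690 of 2013 small and 1807 of 2064 large intestinal member ratios stayed within the counting interval of the reported value. In Visium, 60 of 65 ratios moved by under 0.5 log2 units. Some alternatives were chosen after seeing the data: the mean CPM minimum, no mitochondrial maximum, dropping members without Neurod1, Tph1 or hormone UMIs, and dropping the 5 alike large intestinal members. The last of these left every count of genes within 1.5 times the reported one. At a granin minimum of 5, small intestinal members numbered 49, genes higher in them 1827, and tissue counts were 1128 higher in the small and 1423 in the large intestine. That setting also turned small intestinal member ratios of Maoa (0.86), Maob (1.30), Prap1 (0.89) and Reg3b (1.36), and tissue ratios of Maob (1.18), Ptprn2 (−0.25), St18 (−0.42), Ffar4 (−0.0357), Cacna1a (−0.12), Celf3 (−0.37), Scgn (−0.62), Bex2 (−0.17) and Reg3b (4.19). The small intestinal Rbp2 ratio was −0.61 at a granin minimum of 20, −0.52 with granins at 0.1% of UMIs, −0.63 without members lacking those genes and −0.73 without its top barcode. The large intestinal Nts ratio was −2.41 at 20 and −2.21 at 0.1%, settings that lose both of its carriers. Lower small intestinal genes numbered 1045 at 0.1%. By means of each barcode's CPM, lower genes numbered 1525 and 1470, the small intestinal median shifted by −0.27, and the higher share of calls went from 82.0% to 62.6%. Without mitochondrial and ribosomal genes the large intestinal median shifted by −0.13, and also without hormone and granin genes the small intestinal one by 0.17. Without each gene's top barcode, 1842 genes were higher and 1459 lower in the small, 1461 and 1563 in the large intestine. At a mean CPM of at least 20 the counts were 1450 and 370, and 801 and 340. Tissue counts were 1522 and 1182 with no minimum count and 260 and 269 at 50 UMIs. The large intestinal Tph1 share was 51.2% at 10 Tph1 UMIs and 43.9% after thinning. The cause of these shifts was not tested. Depth limits genes under 20 UMIs over both groups, for which no ratio is given. No paired analysis was possible because no result comes from a test and the section numbers mark technical duplicates.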

Other observations

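Of the hormone genes, Sct and Tac1 were carried by many barcodes outside the rule, and each other listed peptide gene by at most 4 in a library. In the large intestine 56 other Epcam-positive barcodes held 10 or more Tac1 UMIs, with 0 Neurod1 and 0 Tph1 UMIs. Against the remaining 5198, the highest ratios by log2 were Clca4b at 5.19, St8sia5 at 4.94, Ly6g at 4.56 and Saa1 at 4.49. These barcodes were deeper, with a median of 37226 against 24546 UMIs. Sct was carried by 107 small and 223 large intestinal barcodes of the other Epcam-positive epithelium. The 5 highest log2 ratios beside Sct itself were, in the large intestine, Lhx3 (6.17), Ghrl (5.95, with 83 of 88 UMIs in 1 barcode), Tff2 (4.25), Reg4 (4.06) and A4gnt (3.07). In the small intestine they were Nts (6.54, with 747 of 757 UMIs in 1 barcode), Mptx1 (4.53), Art2b (3.87), Pla2g10 (3.75) and Id4 (3.72).

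The same rule found 5 barcodes among 540 of the control organoid library and 26 among 1037 of the coculture library, 0.926% (exact interval 0.301 to 2.15%) and 2.51% (1.64 to 3.65%). There was 1 library of each, and the difference was not tested. Cck was at 9861 CPM in the 5 and 21449 CPM in the 26, Sst at 0 UMIs in both, and Insl5 at 0 and 11 UMIs. Trpa1 had 45 UMIs in 7 coculture barcodes, and Piezo2 had 0 UMIs in both organoid sets.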
